A study of Mus musculus with 7 samples.

Results

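The cytosolic ribosomal protein genes encode the proteins of the ribosomes that work in the cytoplasm. They were taken as every gene whose symbol is Rpl or Rps followed by a number, with an optional a, x or l1, together with Rplp0, Rplp1, Rplp2 and Rpsa. Symbols of pseudogenes, which carry -ps, were dropped. The rule found 78 genes of 13587 listed in the tables, 48 of the large subunit and 30 of the small subunit, and all 78 were listed in every table. A ribosome joins a small subunit, which reads the mRNA, to a large subunit, which links the amino acids, and each protein is present in a fixed number of copies. Most of these mRNAs begin with a run of pyrimidines, the terminal oligopyrimidine (TOP) motif, through which growth signals acting on mTOR set their translation. Ribosomal protein genes are also copied into the genome many times as processed pseudogenes, which share long stretches of sequence with the source gene.

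The cells were B16, a melanoma line from a C57BL/6 mouse, in the form of 1 stable clone kept under 5 passages, so every group rests on 1 clone. Detached cells were kept for 5 h in 10 nM recombinant mouse interferon gamma (IFNγ) or in medium alone (mock), washed 3 times and seeded as duplicate wells of a 96-well plate with 35000 cells each. PolyA RNA was sequenced from a T0 group (0 h) and from both arms at 3 later times (23.5, 48 and 91 h), which makes 7 groups. The labels state neither the moment from which hours were counted nor whether T0 cells had been pulsed.

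Values are normalised reads, that is reads divided by a size factor, on a scale set through T0. The deposited tables give the mean of each group, and the reads of the 2 libraries behind each mean were solved from its digits, which gave 14 libraries with 12097172 to 22304462 reads in the genes solved throughout. Within a group, library 1 has the higher size factor of the pair, and its number pairs it with no library of another group. Both libraries were solved in every group for 77 members. Rpl4 was not solved at 48 h in mock or at 91 h with IFNγ and was untested there. The 2 libraries lay farthest apart with IFNγ at 48 h, where their log2 ratio had an SD of 0.419 over genes of 1000 or more, against 0.150 in mock at 48 h and 0.0668 to 0.0958 in the other groups. Igtp, an IFNγ-induced GTPase, stood at 42.8 in T0, at 6304, 6229.5 and 1846 with IFNγ, and at 59.2, 707 and 657 in mock, so the mock cells at 48 and 91 h were above T0 for it too. Irf1, an early IFNγ target, was higher with IFNγ than in mock by 2.46 at 23.5 h (adjusted p 5.2e-11) and 0.69 at 91 h (adjusted p 2.2e-05) on the log2 scale. Of the marker genes searched, 7 of 7 were listed for melanocytes, led by Tyrp1 at up to 241038, 0 of 4 for keratinocytes, 1 of 7 for T and NK cells (Lck, at most 143), 2 of 6 for myeloid cells, 4 of 6 for fibroblasts and 1 of 4 for endothelium (Vwf, at most 933). Whether the libraries came from separate cultures is not in the labels, so p-values measure only how far these libraries scatter, which may be technical. In bulk RNA, fewer cells with a transcript and less of it per cell cannot be told apart.

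The copies matter for what a read can be assigned to, and 3 are shown whose members return below and whose whole length occurs without a difference inside the mRNA of the source gene. The table lists 58 pseudogene copies of 38 members. Of these, 9, the 3 among them, had every 50-base window in transcripts of their member, and the median copy had 58.7% of its windows there. Shown are the first 60 coding bases shared by Rpl10a (GRCm38, GENCODE M21, chr17:28328471-28331033, plus strand) and Rpl10a-ps1 (chr1:64993951-64994604, minus strand), by Rps6 (chr4:86854660-86857412, minus strand) and Rps6-ps4 (chr2:75191073-75191822, minus strand), and by Rps13 (chr7:116331505-116334195, minus strand) and Rps13-ps2 (chr7:88530446-88530898, minus strand). The identity ran over all 654, 750 and 453 bases of the copies.
Rpl10a and Rpl10a-ps1: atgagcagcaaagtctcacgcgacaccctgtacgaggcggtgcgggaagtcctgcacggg
Rps6 and Rps6-ps4: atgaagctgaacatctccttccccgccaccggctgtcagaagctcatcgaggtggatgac
Rps13 and Rps13-ps2: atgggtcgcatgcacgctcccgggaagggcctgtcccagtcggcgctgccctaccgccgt
A copy with a single difference is shown beside them, with the differing base in capitals: coding bases 133 to 192 of Rpl19 (chr11:98026710-98030492, plus strand) against Rpl19-ps11 (chr8:19492936-19493526, plus strand), which differ by G191A, counted from 1 at the start codon.
Rpl19: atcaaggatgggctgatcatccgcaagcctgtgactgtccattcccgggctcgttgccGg
Rpl19-ps11: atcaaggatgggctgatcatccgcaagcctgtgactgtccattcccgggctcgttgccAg

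The second set shows the start sites of the members that moved most by 91 h in mock, to lay the pyrimidine run of the TOP motif beside the values below. The RefSeq promoter table (GRCm38.p6) held 58 of the 78 members. Each window runs from 15 bases before the annotated start to 15 bases into the transcript, on the strand of the gene, and capitals mark its longest run of C and T. Rpl17 is left out here, and of the other members with an entry these 4 had the highest log2 change from T0.
Rpl22l1 (chr3:28805493-28805522, plus): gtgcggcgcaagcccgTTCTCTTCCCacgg
Rps27 (chr3:90213634-90213663, minus): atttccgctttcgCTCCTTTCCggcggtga
Rpl19 (chr11:98026909-98026938, plus): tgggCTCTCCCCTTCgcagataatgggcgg
Rps24 (chr14:24490663-24490692, plus): cccgcgctggggTCCTTCCTTgcgcgttga
These 4 had the lowest.
Rpl27 (chr11:101442230-101442259, plus): acgctctgTTCCTgtctgctgctcgtgctg
Rpl11 (chr4:136053379-136053408, minus): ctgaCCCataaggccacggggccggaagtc
Rpl7a (chr2:26910792-26910821, plus): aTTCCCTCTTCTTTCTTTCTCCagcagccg
Rps28 (chr17:33824548-33824577, minus): ggtaccgcgtgcggTCTCgcgagagcgaaa
A run of 7 or more stood in the window of 32 of the 58 members (55.2%), against 21.3% of 27025 genes, each taken at the start with its longest run. The runs were 9 to 11 bases in the 4 that rose most, and 5, 3 and 4 bases in Rpl27, Rpl11 and Rps28, while Rpl7a had 21. In mock at 91 h against T0, members with such a run had a median log2 change of 0.13 and the 26 without it a median of -0.07, with ranges of -0.55 to 0.81 and -0.96 to 0.44 that overlap. An annotated start can lie off the true start, so a run, short or long, says only what stands in this window. The Rpl27 window ends at 101442259, before the GENCODE M21 start of that gene at 101442298. In Rpl19 the run lies wholly before the annotated start, so outside the transcript as annotated.

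All 78 members were above 100 normalised reads in T0. Their T0 levels ran from 114 for Rpl36a, which lies at the tRNA exit site, to 27456 for Rpl4. Per kilobase of exon, Rplp1 of the stalk was highest at 24971, followed by Rpl8, a protein near the peptidyl transferase centre, at 17463 and Rpl32 at 16475. The lowest were Rpl36a at 68.8, Rpl5 at 90.2 and Rps13 at 92.5. Genes for proteins of the same particle thus stood at levels per kilobase far apart in the tables. These levels also depend on the length used, which joined the exons of all annotated transcripts of a gene. It was 2691 bases in Rps13 and 1655 in Rpl36a, whose main coding transcripts have 589 and 483, but 499 in Rplp1, whose transcript has 499. How much of the spread came from this length was not tested. The level went with how much of a transcript is shared with other genes. In 18 members under 20% of the 50-base windows of the transcript occurred in no other gene, and their median T0 level per kilobase was 445. It was 916 in the 32 members between 20% and 60%, and 1046 in the 28 members at 60% or more. Across the 78 members, Spearman's rho between unshared windows and level per kilobase was 0.37, a description over genes of the same libraries. Whether shared sequence lowered the counts was not tested.

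Together the members took 1.33% of all gene reads in T0. The share was 1.18% in mock at 23.5 h, 1.20% at 48 h and 1.44% at 91 h, and 1.12%, 1.12% and 1.44% with IFNγ. It therefore stood lowest at 23.5 and 48 h and highest at 91 h in both arms. The entry for 18S ribosomal RNA, the RNA of the small subunit, took between 9.49% and 14.2% of these reads. Without it the shares were 1.52% in T0, 1.35%, 1.38% and 1.68% in mock and 1.24%, 1.24% and 1.64% with IFNγ. Over the genes solved in every library, the 2 libraries held 1.61% and 1.58% in T0, 1.45% and 1.39% in mock at 23.5 h, and 1.29% and 1.29% with IFNγ at 23.5 h. At 91 h they held 1.78% and 1.74% in mock and 1.75% and 1.67% with IFNγ, all 4 above both T0 libraries.

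**Figure D1:**
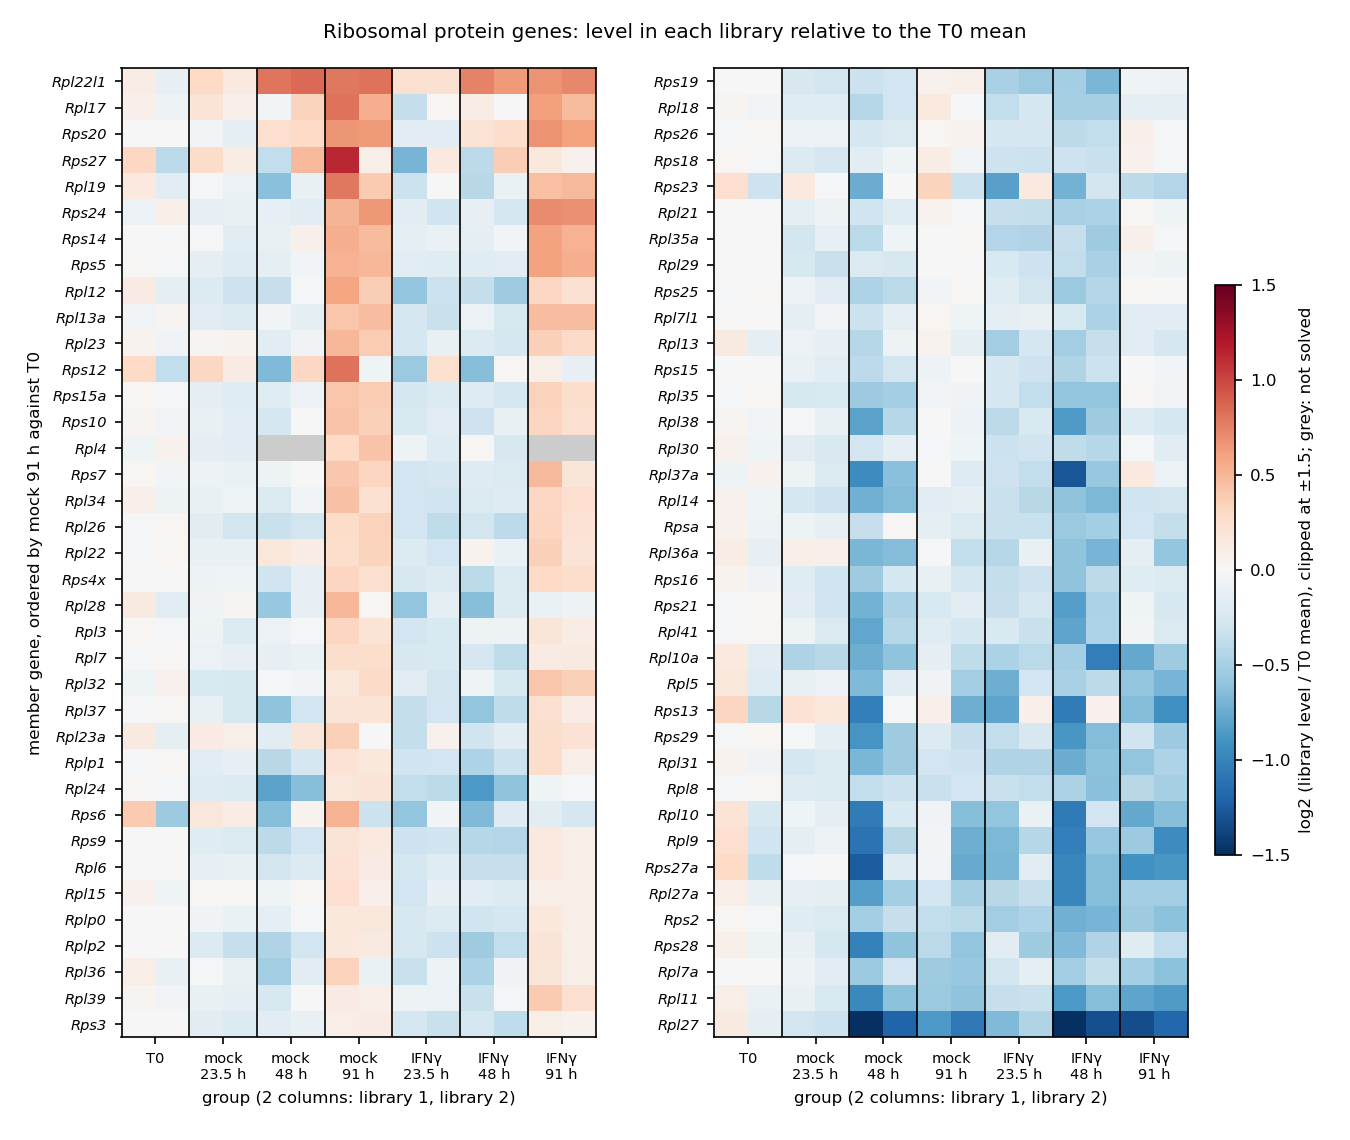
Colour shows log2 of the level of each of 74 of the 78 members in each of the 14 libraries over its T0 mean, from blue (lower) to red (higher), with 2 columns per group and rows ordered by the change in mock at 91 h. Most rows are pale blue at 48 h in both arms, the upper rows of the left panel turn red at 91 h, Rpl27 at the foot of the right panel is darkest blue, and rows such as Rps13, Rps27 and Rps6 differ in colour between the 2 libraries of a group.

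In mock cells, part of the ribosomal protein mRNAs were slightly lower than T0 at 23.5 h and more of them at 48 h, and most rose from 48 to 91 h. At 23.5 h against T0, 24 of 78 tested members were lower and 0 higher, where 6.36% of all 12481 genes tested were lower and 8.36% higher. The median estimate was -0.12 on the log2 scale against -0.00 over all genes. The test was limma on log2(normalised reads + 1) over all genes, adjusted for all of them, and estimates are differences of mean log2 values. The lowest were Rpl10a of the mobile L1 stalk at -0.43 (SE 0.08, adjusted p 0.00193), Rpl27 at -0.29 (SE 0.08, adjusted p 0.0296), Rpl29 at -0.29, Rpl14 at -0.28 and Rplp2 at -0.27. The highest estimates, Rps12 at 0.26, Rps27 at 0.23, Rps13 at 0.23, Rpl22l1 at 0.23 and Rps6 at 0.22, did not pass, and 1 member was higher at an unadjusted p under 0.05. The 24 calls rested on the variance trend: there were 0 without it and 0 in 1 fit over all libraries, where 21 and 20 genes of all kinds were lower. They numbered 9 and 13 without T0 library 1 and 2, and 40 without mock library 1. Without T0 library 1, 6 members were higher, and without mock library 2, 2 were.

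At 48 h against T0, 41 of 77 members were lower and 2 higher, with 31.5% and 32% of 12724 genes in those directions. The median estimate was -0.26 against -0.00 over all genes. Of these calls, 28 of 43 were kept under every alternative setting and with each library left out. Without mock library 2, 64 members were lower, while 5 were higher without mock library 1 and 1 without T0 library 2. Rpl27, a large-subunit protein, had the lowest estimate against T0 both at 48 and at 91 h. Its libraries held 865 and 707 normalised reads in T0, 651 and 628 at 23.5 h, then 271 and 343 at 48 h, then 434 and 374 at 91 h. Both libraries at 48 h lay below both of every other mock time, and the log2 difference from T0 was -1.36 (SE 0.13, adjusted p 8.1e-06). Rps28, a small-subunit protein near the exit of the mRNA channel, held 180 and 162 in T0 and 85 and 113 at 48 h, a difference of -0.80 (SE 0.16, adjusted p 0.00162). Rpl11 differed by -0.79 (SE 0.12, adjusted p 0.0002), Rpl37a by -0.78 and Rpl9 by -0.73. The exceptions on the other side were Rpl22l1 and Rps20.

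Rpl22l1 is the paralogue of Rpl22 and can take its place in the large subunit. Its libraries held 558 and 472 normalised reads in T0, 635 and 569 in mock at 23.5 h, then 899 and 924 at 48 h, then 892 and 909 at 91 h. At 48 and 91 h every mock library was above those of T0 and 23.5 h, and the rise from T0 was 0.83 (SE 0.09, adjusted p 2.8e-05) and 0.81 (SE 0.08, adjusted p 8.9e-07) on the log2 scale. With IFNγ the libraries held 608 and 604 at 23.5 h, then 860 and 803 at 48 h, then 818 and 846 at 91 h, again above both T0 libraries throughout. Rpl22 itself held 4331 and 4494 in T0 and 5317 and 5564 in mock at 91 h, and rose by 0.30 (SE 0.04, adjusted p 2e-05). Rps20, of the head of the small subunit, rose by 0.27 (SE 0.06, adjusted p 0.00183) at 48 h and by 0.65 (SE 0.04, adjusted p 4.9e-09) at 91 h.

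By 91 h in mock, calls of members were divided more evenly between the 2 directions than at 48 h. Their estimates ran from -0.96 to 0.81, within the -1.36 to 0.83 of 48 h. Against T0, 33 of 78 were higher and 15 lower, where 37.2% of 12783 genes were higher and 37.1% lower, so the total share of calls was below that of all genes and more of them were upward. The median estimate was 0.11 against 0.00. Of the 48 calls, 31 were kept under every alternative and leave-out. Among the highest were Rpl22l1 at 0.81, Rpl17 of the peptide exit tunnel at 0.68 (SE 0.10, adjusted p 3.6e-05), Rps20 at 0.65 and Rps27 at 0.65 (SE 0.27, adjusted p 0.046). Rps20 held 3483 and 3441 in T0 and 5475 and 5401 at 91 h, with no overlap, whereas Rps27 held 239 and 146 in T0 and 422 and 204 at 91 h, which overlap. The lowest were Rpl27 at -0.96 (SE 0.10, adjusted p 1.5e-06), Rpl11 at -0.57, Rpl7a at -0.55 (SE 0.04, adjusted p 1.2e-07), Rps28 at -0.49 and Rps2 of the mRNA entry at -0.39 (SE 0.04, adjusted p 7.9e-07). The 15 lower members became 8 without T0 library 1 and 9 in 1 fit over all libraries.

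From 48 to 91 h in mock, most members rose and none fell. There, 49 of 77 members were higher and 0 lower, against 26.6% and 29.9% of 12566 genes, and 0 were lower at an unadjusted p under 0.05. The median estimate was 0.38 against -0.02 over all genes, and 74 of 77 estimates were above 0. Without mock library 1 at 48 h, 2 members were lower. Rpl19, which reaches across to the small subunit, held 510 and 728 normalised reads at 48 h and 1358 and 1037 at 91 h, a rise of 0.96 (SE 0.16, adjusted p 0.00046). Rpl24, of another bridge between the subunits, rose by 0.90 (SE 0.16, adjusted p 0.00066), Rps24 by 0.73 (SE 0.07, adjusted p 8.8e-06) and Rpl37a by 0.68. The lowest estimates, none of which passed, were Rpl7a at -0.13, Rpsa at -0.02, Rpl22l1 at -0.02, Rpl8 at 0.03 and Rps2 at 0.04. The step before it, from 23.5 to 48 h, had 26 members lower and 4 higher of 77, near the 28.9% and under the 28% of all 12514 genes. The 4 were Rpl22l1 at 0.60, Rps20 at 0.37, Rpl22 at 0.25 and Rpl32 at 0.20. The lowest were Rpl27 at -1.07, Rpl36a at -0.75, Rps27a at -0.71, Rps13 at -0.70 and Rpl37a at -0.64. The 26 became 49 without mock library 2 at 48 h, 16 without library 1 at 48 h, 17 without library 1 at 23.5 h, 17 with libraries scaled to equal totals and 15 without the variance trend. The 4 became 2 without either library at 23.5 h.

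**Figure D2:**
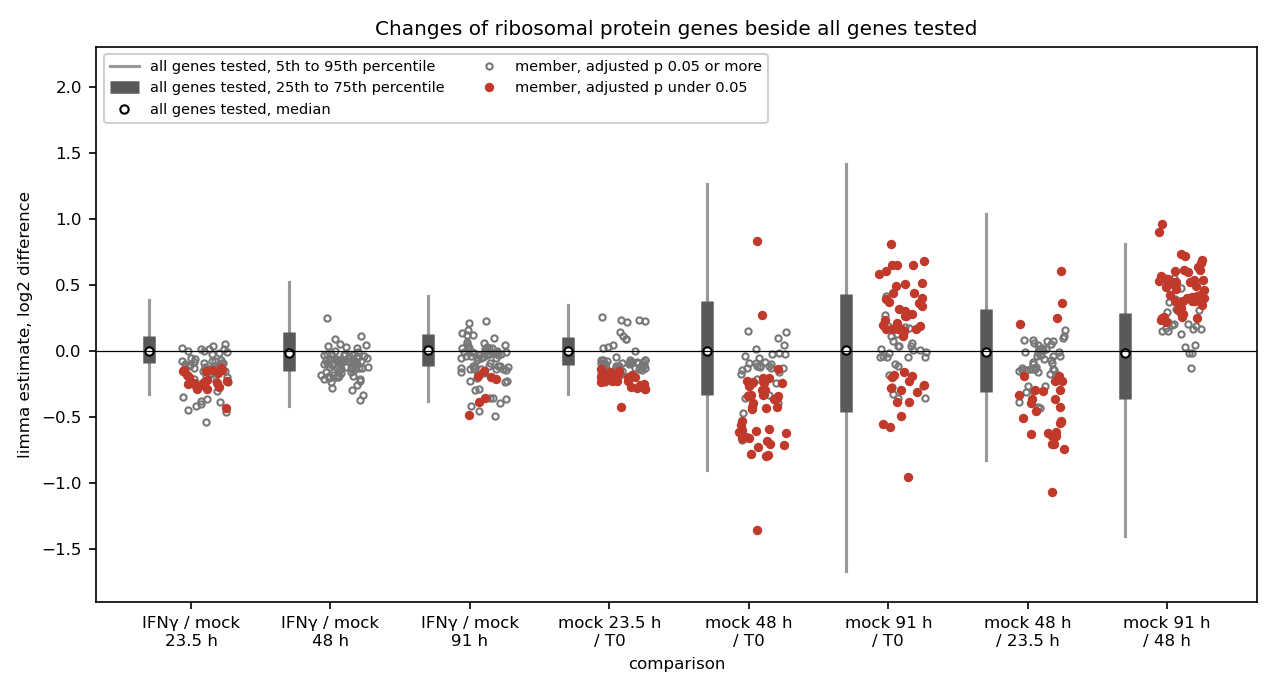
Each column is a comparison, with the limma estimate (log2 difference) of every member tested as a circle, red where the adjusted p was under 0.05, beside the median and percentiles of all genes tested in grey. Most members sit below 0 in the first 5 columns, reach -1.36 (Rpl27) in mock at 48 h against T0, spread to both sides in mock at 91 h against T0, and sit above 0 in all but 3 cases in mock at 91 h against 48 h.

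By role, the stalk proteins all rose from 48 to 91 h in mock, as did most members (49 of 77) and 26.6% of all genes. The stalk recruits the elongation factors and is built of Rplp0, Rplp1 and Rplp2 on a base that holds Rpl12. Rplp1 held 12307 and 12614 normalised reads in T0, 9352 and 10448 at 48 h and 14447 and 13939 at 91 h. From 48 to 91 h, 4 of 4 rose, by 0.25 (Rplp0, adjusted p 0.0101), 0.52 (Rplp1, adjusted p 0.00013), 0.52 (Rplp2, adjusted p 0.00015) and 0.66 (Rpl12, adjusted p 0.00045). At 91 h 4 of 4 were above T0, by 0.15 to 0.49, where 37.2% of all genes were higher, and 2 of 4 in 1 fit over all libraries. Rpl5 and Rpl11 carry the 5S ribosomal RNA and, when free, bind Mdm2, the ubiquitin ligase of p53. Neither was higher at 91 h than in T0. Rpl11 held 816 and 716 in T0 and 520 and 506 at 91 h, and differed by -0.57 (SE 0.08, adjusted p 1.6e-05). Rpl5 held 397 and 310 in T0 and 342 and 247 at 91 h, which overlap, and its -0.27 (SE 0.15, adjusted p 0.115) did not pass.

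Of the other members fixed for description, Rpl13a rose by 0.44 (SE 0.04, adjusted p 3.2e-07) in mock at 91 h, from 11929 and 12536 to 16328 and 16878. Rps3, which lines the mRNA entry channel, rose by 0.11 (SE 0.04, adjusted p 0.0129). Rpsa, also known as the laminin receptor, fell by 0.18 (SE 0.05, adjusted p 0.00456). Rps6, the target of the S6 kinases, and Rps27a, which is made fused to ubiquitin, had estimates of 0.18 and -0.36 that did not pass. Among the 17 genes listed that carry a, x or l1 or are their partners, 5 were higher and 4 lower at 91 h, below the 37.2% and 37.1% of all genes, with a median of -0.02. The lower ones were 2 in 1 fit over all libraries. Beside Rpl22l1 and Rpl13a, the higher ones included Rps15a at 0.40 (adjusted p 1.5e-06) and Rps4x at 0.28. Beside Rpl7a and Rpl10a, the lower ones were Rpl27a at -0.39 (adjusted p 0.00072) and Rpl36al at -0.20, which the rule for members leaves out. Rpl36a, Rpl37a, Rpl7l1, Rpl35a and Rpl23a had -0.18, -0.10, -0.02, 0.01 and 0.19 and did not pass. Rps27l, a p53 target that is a partner of Rps27 and also no member, rose by 0.92 (adjusted p 1.7e-06) from 48 to 91 h. The large-subunit members had 20 higher and 9 lower of 48 and the small-subunit members 13 and 6 of 30, so both subunits held both directions.

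**Figure D3:**
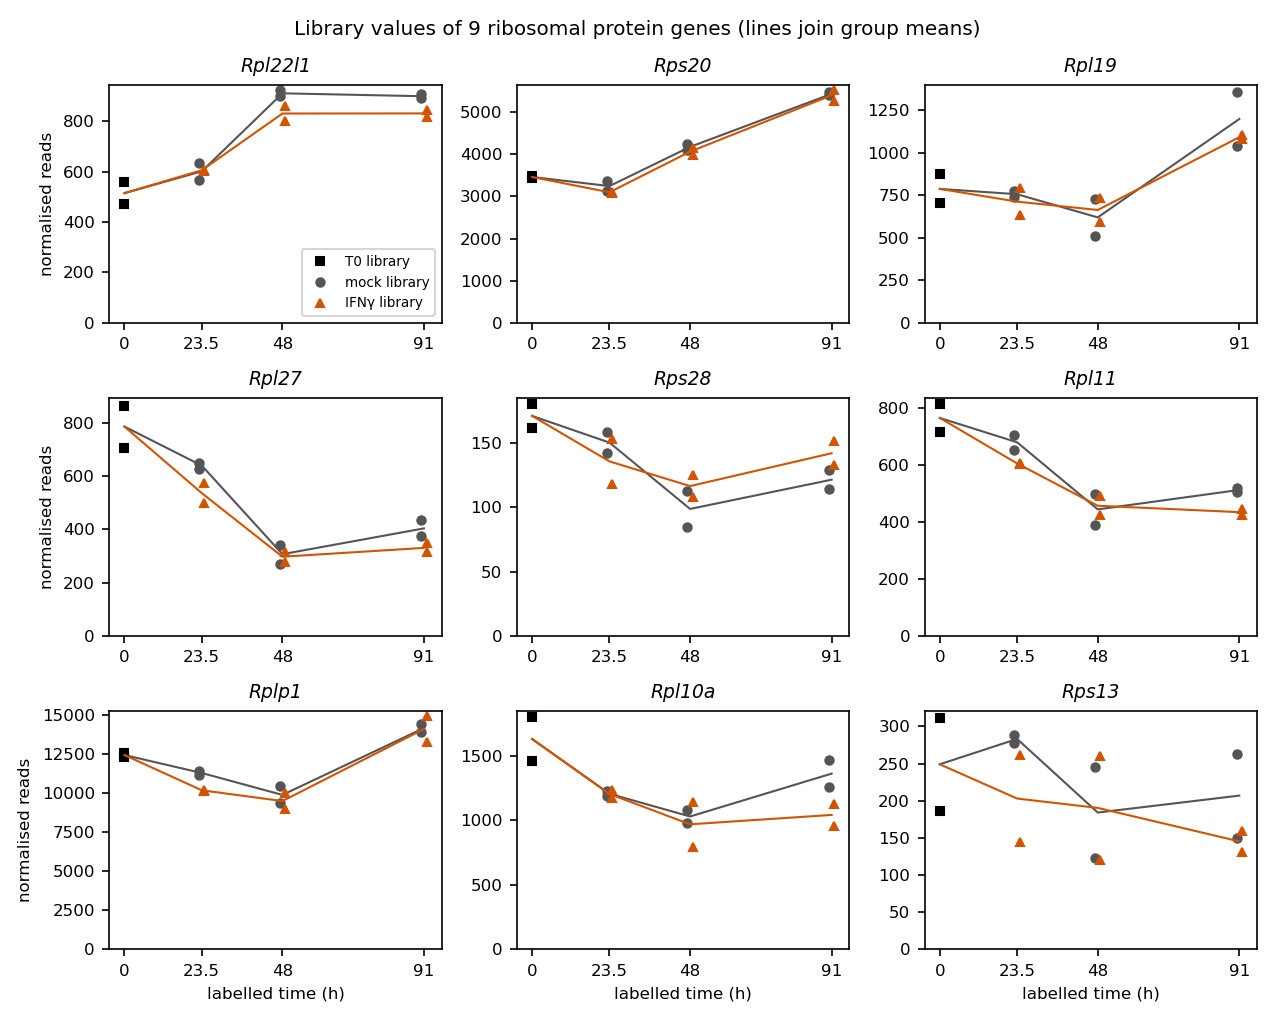
Normalised reads of 9 members in each library against labelled time, with squares for T0, circles for mock and triangles for IFNγ (shifted sideways by under 1 h) and lines through group means. Rpl22l1 and Rps20 end above T0 in both arms, Rpl27 and Rpl11 end below it, Rplp1 dips at 48 h, and in Rps13 the 2 libraries of a group lie as far apart as the groups.

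After the IFNγ pulse, part of the ribosomal protein mRNAs were lower than in mock at 23.5 h. Against mock, 22 of 78 members were lower and 0 higher, where 6.06% of 12452 genes were lower and 8.55% higher. The differences were small: the median estimate was -0.15 against 0.00 over all genes, and 72 of 78 estimates were below 0. At an unadjusted p under 0.05, 44 were lower and 0 higher. Rps2 held 8485 and 8286 normalised reads in mock and 6729 and 6972 with IFNγ, a difference of -0.29 (SE 0.04, adjusted p 0.00073). Rpsa held 5203 and 5030 in mock and 4336 and 4326 with IFNγ, a difference of -0.24 (SE 0.04, adjusted p 0.00255). In both genes the libraries of the arms did not overlap. Of the stalk, Rplp0 and Rplp1 were lower by 0.15 each on the log2 scale (adjusted p 0.0349 and 0.0307), and Rplp2 did not differ beyond its error (-0.00, SE 0.05).

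The 5 lowest estimates were Rps13 at -0.54, Rps27 at -0.46, Rps6 at -0.45, Rpl9 at -0.44 (SE 0.09, adjusted p 0.00756) and Rps27a at -0.41, of which Rpl9 alone passed. Among the highest were Rpl39 at 0.05, Rpl29 at 0.02, Rpl4 at 0.02 and Rpl22l1 at 0.01, and none passed. All 9 called small-subunit members and all 13 called large-subunit members had estimates between -0.44 and -0.13. Of the paralogous genes, Rpl27a, Rpl35a and Rps4x were lower by 0.25, 0.25 and 0.16 on the log2 scale, while Rpl36al was higher by 0.24 (adjusted p 0.016). These calls changed with the fit: without the variance trend 0 remained and in 1 fit over all libraries 1, where 85 and 76 genes of all kinds were lower. Without IFNγ library 1, 6 members were lower. Of the 22, 5 were kept with each of the 4 libraries left out, among them Rps2, Rps19 and Rpsa. The 18S entry moved with this comparison, at 12.4% of gene reads in mock and 9.49% with IFNγ at 23.5 h, and its part in the result was not tested.

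At 48 h, where the IFNγ libraries lay farthest apart, 0 members and 0 of all 12652 genes passed in either direction (0%), and at an unadjusted p under 0.05, 1 member was lower and 0 higher. In 1 fit over all libraries, 3 members were lower, where 263 genes of all kinds were lower and 435 higher. Among the lowest estimates were Rpsa at -0.37 (SE 0.16), Rps19 at -0.30, Rps2 at -0.28 and Rpl12 at -0.26, and the highest were Rps28 at 0.25, Rpl19 at 0.11, Rpl36 at 0.09, Rpl11 at 0.05 and Rpl14 at 0.04.

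At 91 h, 7 of 77 members were lower with IFNγ and 0 higher, near the 7.54% and below the 8.75% of 12434 genes, with a median of -0.06 against 0.00. At an unadjusted p under 0.05, 25 were lower and 3 higher. Rpl10a held 1471 and 1256 normalised reads in mock and 955 and 1129 with IFNγ, a difference of -0.39 (SE 0.08, adjusted p 0.00492). Its copy Rpl10a-ps1, whose whole sequence occurs in the Rpl10a mRNA, held 4366 and 5002 in mock and 4643 and 4350 with IFNγ, which overlap. The other lower members included Rps27a at -0.49 (adjusted p 0.0496), Rpl28 at -0.35, Rpl18 at -0.20, Rps2 at -0.19 and Rpl8 at -0.15. Estimates that did not pass ran from Rps27 at -0.49, Rps13 at -0.46, Rps23 at -0.42 and Rps12 at -0.40 up to Rps28 at 0.22, Rpl39 at 0.21, Rpl32 at 0.16, Rpl37a at 0.13 and Rps24 at 0.12. The 7 became 0 without the variance trend or in 1 fit over all libraries, 3 with no filter on level and 11 with equal totals. They became 2 without IFNγ library 1, 2 without IFNγ library 2, 3 without mock library 1 and 19 without mock library 2. Among genes of level 100 or more 2 members were higher, and the count was 2 without mock library 2 and 1 without IFNγ library 2 or mock library 1. The effect of the pulse at 91 h was tested against that at 23.5 h as an interaction, and 0 of 77 members passed, with 3.94% of 12525 genes higher and 5.34% lower. At an unadjusted p under 0.05, 9 were higher and 1 lower, and without IFNγ library 2 at 91 h, 2 were higher and 1 lower after adjustment. Among the highest estimates were Rps28 at 0.38, Rpl37a at 0.33, Rpl23a at 0.31 and Rpl35a at 0.26, and next to Rpl10a the lowest were Rpl22l1 at -0.13, Rpl7l1 at -0.12, Rpl10 at -0.11 and Rpl29 at -0.08. Rpl10a, at -0.00 (SE 0.05) at 23.5 h, had the lowest interaction at -0.39 (SE 0.12, adjusted p 0.0546). Rpl13a, which in IFNγ-treated human monocytic cells leaves the ribosome to join a translation inhibitor complex, had estimates of -0.11, -0.07 and 0.02 at the 3 times and passed at none.

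A set of 8 members stood apart for the spread between libraries of a group. Their SD of log2 level within groups was over 0.3, up to 0.55 in Rps13, against a median of 0.084 over the 78. They are Rps13, Rps27, Rps12, Rps6, Rps27a, Rps23, Rpl10 and Rpl9. Rps13 held 311 and 187 normalised reads in T0, 289 and 277 in mock at 23.5 h, then 122 and 246 at 48 h, then 263 and 150 at 91 h. With IFNγ it held 144 and 262, then 120 and 260, then 159 and 131. Libraries of single groups thus lay as far apart as the group means did. The 8 moved as a block: all 8 were lower in library 2 of T0 and of mock at 91 h, and all 8 were higher in library 2 of mock at 48 h and of IFNγ at 23.5 and 48 h. Their median log2 ratio of library 2 to 1 was -0.67, -0.76, 0.83, 0.67 and 0.56 in these groups, while the other members had medians of -0.03, -0.05, 0.15, 0.01 and 0.02. Of 10611 genes with a mean level of 100 or more, 11 followed the mean course of the 8 over libraries (Pearson's r over 0.9) with an SD over 0.3. They were the 8 and Fau, which encodes a fusion with the ribosomal protein S30, Ppia and Gm13340. Of members, 10.3% had such a spread, against 9.29% of all genes. Among those at a mean level of 200 to 1000 it was 34.8% of 23 members against 3.41% of 4663 genes. The course was used to pick these genes, so it is given as a description.

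**Figure D4:**
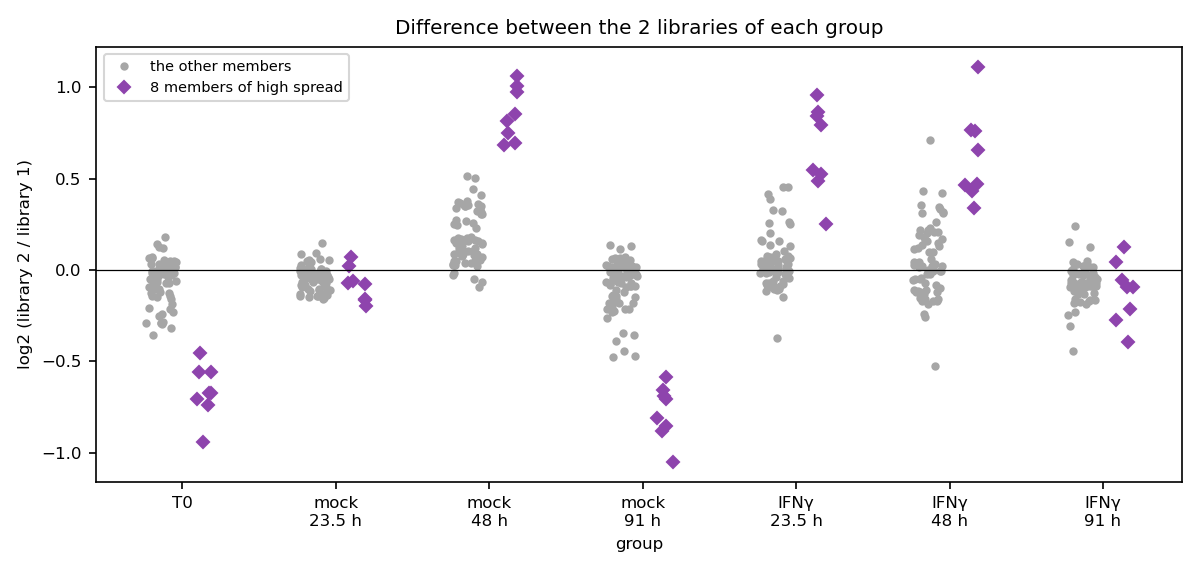
Points show log2 of library 2 over library 1 within each group, for the 8 members of high spread (diamonds) and the other members (grey circles). The diamonds lie below 0 in T0 and mock at 91 h, and above 0 in mock at 48 h and IFNγ at 23.5 and 48 h. They lie on both sides of 0 in the remaining groups, from -0.39 to 0.13 with IFNγ at 91 h. The grey circles centre near 0 except in mock at 48 h, where their median is 0.15.

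These 8 had estimates of -0.24 to -0.54 in the comparison of IFNγ with mock at 23.5 h, where 1 of 8 passed, and across all 78 members Pearson's r between that estimate and the spread within groups was -0.72 and Spearman's rho -0.51. Without them, a comparison added after the data were seen, the 70 other members had 21 lower and 0 higher, with a median of -0.13. The lower level at 23.5 h was thus also present without them. Of the 18 members with under 20% unshared windows, 6 were among the 8, so most of those 18 were not. The 8 also included 2 of the 32 members between 20% and 60%, and 0 of the 28 at 60% or more. What set the 8 apart was not tested.

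The copies listed for 4 of these genes had a smaller spread. Rps13-ps2 held 645 and 608 normalised reads in T0, 609 and 607 in mock at 23.5 h and 605 and 604 with IFNγ at 23.5 h, an SD of 0.040 within groups against 0.55 in Rps13. These were 6 copies, and their SD ran from 0.040 to 0.17. At 23.5 h, where IFNγ differed from mock by -0.54 in Rps13, -0.45 in Rps6 and -0.44 in Rpl9, the estimates of Rps13-ps2, Rps6-ps4 and Rpl9-ps6 were -0.01, -0.10 and -0.15. For the first 2, whose sequence is that of the mRNA printed above, log2 ratios of the summed level of gene and copy were -0.14 and -0.13. Those of the gene alone were -0.48 and -0.43 on this scale of group means. In mock at 23.5 h the 2 copies held means of 608 and 2454 normalised reads. The libraries of the genes held 289 and 277 (Rps13) and 348 and 331 (Rps6) there. The copies thus held most of each sum, and its ratio follows mainly theirs.

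Some copies held more reads than the gene they come from. In T0, 12 of the 58 copies lay above their member, 7 of them among the 9 with every window in it. Rpl10a-ps1 stood at 4180 normalised reads against 1632 for Rpl10a, Rps6-ps4 at 2804 against 308 for Rps6, and Rpl19-ps11 at 4203 against 787 for Rpl19. All copies summed to 47979 normalised reads against 298607 for the members. In mock at 91 h against T0, 39 copies of 100 or more could be set beside their member, and 30 had the higher estimate, with a median difference of 0.077 and a range of -0.49 to 0.52. Rpl10a had -0.26 where Rpl10a-ps1 had 0.16 (SE 0.06, adjusted p 0.0246), and Rpl19 had 0.60 where Rpl19-ps11 had 0.65. The value of such a member is that of the reads assigned to its own entry, and how the authors treated reads that match several places is not given in the sources used here.

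**Figure D5:**
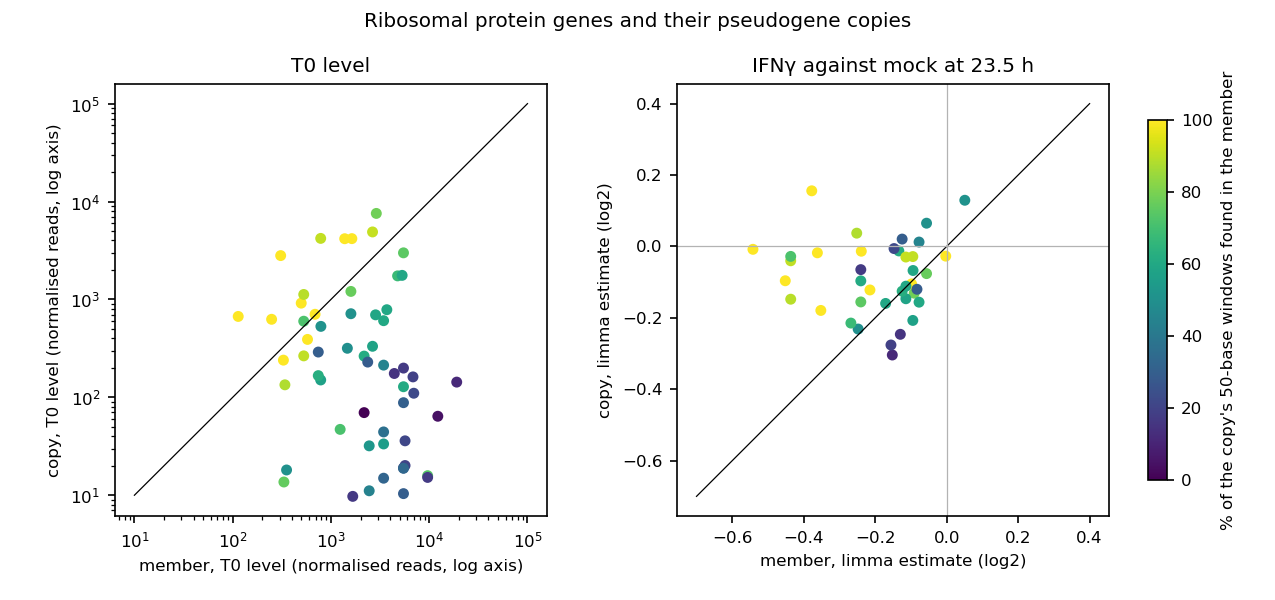
The left panel sets the T0 level of each of 58 copies against that of its member (normalised reads, log axes), and the right panel sets the limma estimates of 39 copies for IFNγ against mock at 23.5 h against those of the member. Colour gives the percent of the copy's 50-base windows found in the member and lines mark equality. Of the 9 copies with every window in the member, 7 lie above the line at left, and at right 27 of 39 copies lie above the line.

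In the authors' deposited tables, which test each group against T0 with DESeq, the arms can be set side by side, and they share T0. The authors' deposited table for 23.5 h has 49 of 78 members lower with IFNγ and 13 in mock, and 0 higher in either, at an adjusted p under 0.05. Of all genes listed there, 8.31% and 1.93% were lower and 11.5% and 3.72% higher. The authors' deposited table for 48 h has 45 lower and 2 higher with IFNγ, and 37 and 2 in mock, with 21.4% and 25% of genes lower and 24.1% and 25.6% higher. The authors' deposited table for 91 h has 17 lower and 28 higher with IFNγ, and 9 and 31 in mock, with 30.6% and 30.2% of genes lower and 31.9% and 30.2% higher. In both arms the count of lower members was smaller at 91 h than at 48 h and the count of higher members larger.

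Genes that work with the members were tested in the same comparisons. In mock against T0 their counts were near those of the members in some lists and not in others. Of 48 ribosome biogenesis genes, which make and assemble ribosomal RNA, 17 were lower and 0 higher at 23.5 h, beside 24 lower and 0 higher of 78 members and 6.36% lower and 8.36% higher of all genes. At an unadjusted p under 0.05, 0 biogenesis genes were higher. Of 80 mitochondrial ribosomal proteins 5 were lower and 0 higher at 23.5 h, and of 24 translation initiation and elongation factors 5 were lower and 1 higher. In 1 fit over all libraries, 0 genes of these 2 lists changed. At 48 h, 30 of 48 biogenesis genes were lower and 2 higher, as were 48 and 8 of 80 mitochondrial ribosomal proteins and 13 and 6 of 23 translation initiation and elongation factors, beside 41 and 2 of 77 members and 31.5% and 32% of all genes. The 17 became 0, the 30 and 2 became 15 and 0, and the 8 became 4 in 1 fit over all libraries. At 91 h, 22 biogenesis genes were lower and 5 higher and 45 mitochondrial ribosomal proteins were lower and 10 higher, beside 15 lower and 33 higher of 78 members and 37.1% and 37.2% of all genes. The biogenesis counts were 14 and 2 and the mitochondrial ones 40 and 6 in 1 fit over all libraries. From 48 to 91 h, 16 of 48 biogenesis genes rose and 6 fell, and 16 of 79 mitochondrial ribosomal proteins rose and 16 fell, beside 49 and 0 of 77 members and 26.6% and 29.9% of all genes. That fit had 6 biogenesis genes higher and 1 lower. Of the other TOP mRNAs listed, 8 of 16 rose and 3 fell over this step, with Gas5 at 0.74 and Eif3f at 0.52 highest and Eif3e at -0.44 and Hnrnpa1 at -0.32 lowest. The differences between these lists and the members were not tested.

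With IFNγ against mock at 23.5 h, where 6.06% of all genes were lower and 8.55% higher, 0 of 48 biogenesis genes changed (3 higher and 3 lower at an unadjusted p under 0.05). Of 80 mitochondrial ribosomal proteins 1 was lower and 1 higher. Of 18 other TOP mRNAs 3 were lower and 0 higher (1 higher at an unadjusted p under 0.05), led by Pabpc1 at -0.28 (adjusted p 0.00111) and Nap1l1 at -0.23. Of 24 translation factors 2 were higher, near the share of all genes, and 0 lower (1 lower at an unadjusted p under 0.05), namely Eif6 at 0.20 and Eif1a at 0.16. Of the 5 genes listed of the complex that Rpl13a joins, 0 changed (1 higher and 2 lower at an unadjusted p under 0.05). In 1 fit over all libraries, 0 genes of each of these 5 lists changed. At 91 h, where 7.54% of all genes were lower and 8.75% higher, 26 of 48 biogenesis genes were lower and 0 higher, with a median of -0.23, and 0 were higher at an unadjusted p under 0.05. The lowest were Utp20 at -0.52 (adjusted p 4.4e-05) and Nhp2 at -0.44 (adjusted p 0.00014), and the highest, Polr1c at 0.11 and Taf1d at 0.11, did not pass. Gapdh, a glycolytic enzyme of the complex, was higher by 0.79 (adjusted p 5.8e-08), and Syncrip and Eprs were lower by 0.25 and 0.24 on the log2 scale. In 1 fit over all libraries, 1 biogenesis gene was lower and none of the 3 genes of the complex passed.

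Among regulators of growth, Myc, which drives ribosome synthesis, was higher with IFNγ at 23.5 h by 0.18 (SE 0.05, adjusted p 0.0203) and lower at 91 h by 0.33 on the log2 scale (adjusted p 0.0011). Larp1, which binds TOP mRNAs, was higher by 0.16 at 23.5 h (adjusted p 0.0372) and lower by 0.18 at 91 h (adjusted p 0.0285). Mtor did not pass at 23.5 h (-0.01) or at 91 h (-0.06). In 1 fit over all libraries, 1 of 20 regulators was higher and 1 lower at 23.5 h and 0 changed at 91 h. In mock at 91 h against T0, Mdm2, the partner of free Rpl5 and Rpl11, rose by 1.01 (SE 0.04, adjusted p 4.7e-11), from a mean of 3416 to 6900 normalised reads. Sesn2 and Ddit4, stress-induced inhibitors of mTOR signalling, had the highest estimates of the 20 regulators tested, at 2.50 and 1.61. Of these 20, 10 were higher and 4 lower, where 37.2% and 37.1% of all genes were.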

How the data were processed

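PolyA RNA of the 7 groups was sequenced. The submitters' processing notes name STAR 2.5.0a, Picard 1.124, HTSeq 0.5.3, DESeq and mm10/GRCm38, and give no roles for the tools. For the annotation, the strand setting and multiply matching reads, the sources used here give no detail. The authors deposited 6 tables, each of T0 against a later group. The deposited signal values are group means of reads per gene divided by a size factor, per the file headers. The deposited log2 values are the T0 mean over the later mean, per the file headers, and the deposited p-values are the authors' own. Rows that name no gene were left out. They held 57.1% to 70.3% of the listed total, and 21.1% to 23.9% of it was aligned to several places. The table of IFNγ at 23.5 h lists no such rows.

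From the files, tables were put on the T0 scale and the reads of the 2 libraries behind each mean were solved as the whole-number pair that gives its 10 printed digits, with a tolerance of 1.2 times the rounding error. This gave 1 pair for 99.8% of 78518 later values and for 13583 of 13587 T0 genes. All 13305 T0 genes solved alone in 2 or more tables gave the same pair. The method was tested on simulated data. Totals of 12097172 to 22304462 reads per library make counting error small for most members, and 2 libraries a group limit the precision. The planned test assumed that these could be solved. limma 3.58.1 (R 4.3.3) with a variance trend ran on log2(normalised reads + 1) over all genes of level 20 or more in either group, with the 4 libraries compared, or 8 for the interaction. Benjamini-Hochberg adjustment covered all genes tested, and calls have an adjusted p under 0.05. Python 3.11.15 with pandas 2.3.3 and numpy 2.4.6 did the rest. Shared sequence was counted as 50-base windows of GENCODE M21 transcripts, and start windows came from RefSeq (GRCm38.p6), where 58 of 78 members matched by symbol.

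Members and gene lists were chosen with earlier results of these data known. Named were, per comparison, the 5 highest and 5 lowest members, the 3 highest and 3 lowest levels per kilobase, the paralogous members, 12 fixed members (Rplp0, Rplp1, Rplp2, Rpsa, Rps6, Rpl5, Rpl11, Rpl13a, Rps3, Rps27a, Rpl22, Rpl22l1), and of other lists the 2 highest and 2 lowest genes, with Myc, Mtor, Larp1 and Mdm2. Other members, such as the 8 of high spread, Rpl12 and single members called with IFNγ, were chosen after their values were seen. The values of some members are not reported here by name and are left out of the figures that name genes, while counts cover all 78. Alternatives were another scaling (equal totals), no filter or one of 100, no variance trend, 1 fit over all libraries, and each library left out.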

Additional observations from a re-analysis of the deposited data

How the results depend on the processing

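Of 223 calls of single members, 2941 alternative values kept direction and side of the threshold, 395 kept direction and did not pass, and 0 reversed. Without the variance trend, the lower members numbered 0 for IFNγ against mock at 23.5 h, 0 at 91 h, 0 in mock at 23.5 h against T0 and 15 in mock at 48 against 23.5 h. In 1 fit over all libraries, the same counts were 1, 0 and 0 for the first 3, with 3 for IFNγ against mock at 48 h and 9 in mock at 91 h against T0. In the same order, 76, 69, 20, 263 and 4070 genes of all kinds were lower in that fit. Equal totals gave 11 lower members at 91 h with IFNγ and 17 in mock at 48 against 23.5 h. No filter on level gave 3 lower, and a level of 100 or more 2 higher, at 91 h with IFNγ. The cause was not tested. Without the 18S entry, the shares of gene reads were 1.52% in T0, 1.24%, 1.24% and 1.64% with IFNγ and 1.35%, 1.38% and 1.68% in mock. With 1 library left out, whose lone partner was assumed to vary like the other group, lower members ranged from 6 to 24 for IFNγ against mock at 23.5 h, 0 to 3 at 48 h and 2 to 19 at 91 h, with 0 to 2 higher at 91 h. Against T0 in mock, lower members ranged from 9 to 40 at 23.5 h, 29 to 64 at 48 h and 8 to 21 at 91 h, and higher ones from 0 to 6, 1 to 5 and 27 to 38. From 23.5 to 48 h they ranged from 16 to 49 lower and 2 to 6 higher, and from 48 to 91 h from 38 to 64 higher and 0 to 2 lower. The interaction ranged from 0 to 2 higher and 0 to 1 lower. No paired analysis was possible because the solved libraries carry no number that links them across groups.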
